A study of Mus musculus with 3 samples.

Results

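The genes described are 10 of the 50600 genes counted in mouse T-helper 1 (Th1) cells: the 5 Ikaros family genes Ikzf1 to Ikzf5, the ID genes Id2 and Id3, and the E protein genes Tcf3, Tcf4 and Tcf12. They were chosen by family membership and found in the files by gene identifier, and all 10 were present. RNA, labelled as total RNA, was sequenced from 1 group of 3 libraries, numbered as biological replicates 1, 2 and 3, of Th1 primary cells from C57BL/6NJ mice. Interferon gamma is the hallmark cytokine of this CD4 T-cell fate. Per the file headers, the cells were sorted, with a time of 72 hours. The labels give all 3 libraries 1 donor record and no treatment, age or sex, so the spread between libraries may be technical, and there is no other group to compare with.

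Ikaros family proteins are zinc finger factors of lymphocytes. Their N-terminal fingers bind DNA and their C-terminal fingers join the proteins in pairs, and they act in part by bringing the NuRD chromatin remodelling complex to genes. E proteins are basic helix-loop-helix factors that bind the E-box as dimers. ID proteins have the helix-loop-helix but lack the basic region that touches DNA, so they pair with E proteins and keep them off DNA. In T cells the balance of E and ID proteins guides development and the choice between effector and memory or follicular fates.

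Of the 10 promoters, 6 had RefSeq windows (GRCm38.p6), 9 windows in all, of which the 250 bases before the start were searched. The stretches below are those of Tcf3 and Ikzf1, the genes with the highest levels of the E protein and Ikaros families, and of Id2, the ID gene with bases outside annotated exons. Each reads 5′ to 3′ on the strand of its gene, without bases in an exon of any gene. Capitals mark an E-box, CANNTG, or GGGAA, the core that Ikaros proteins bind, which reads TTCCC on the other strand. Both strands were searched, and matches may overlap.
Tcf3, chr10:80433648-80433885, minus strand: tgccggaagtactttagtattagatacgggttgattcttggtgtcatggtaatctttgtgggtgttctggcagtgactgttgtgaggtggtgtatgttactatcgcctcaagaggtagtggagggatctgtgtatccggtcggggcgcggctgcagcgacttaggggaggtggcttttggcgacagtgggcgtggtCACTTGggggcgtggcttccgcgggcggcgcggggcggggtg
Id2, chr12:25096254-25096342, minus strand: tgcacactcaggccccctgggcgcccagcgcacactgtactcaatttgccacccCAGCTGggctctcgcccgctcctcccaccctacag
Ikzf1, chr11:11685675-11685924, plus strand: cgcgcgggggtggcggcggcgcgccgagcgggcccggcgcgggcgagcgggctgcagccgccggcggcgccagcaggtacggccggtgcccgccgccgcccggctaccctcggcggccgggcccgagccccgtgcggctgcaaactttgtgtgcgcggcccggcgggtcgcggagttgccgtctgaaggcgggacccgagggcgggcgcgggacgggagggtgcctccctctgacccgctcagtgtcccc
Ikzf1, chr11:11689927-11690176, plus strand: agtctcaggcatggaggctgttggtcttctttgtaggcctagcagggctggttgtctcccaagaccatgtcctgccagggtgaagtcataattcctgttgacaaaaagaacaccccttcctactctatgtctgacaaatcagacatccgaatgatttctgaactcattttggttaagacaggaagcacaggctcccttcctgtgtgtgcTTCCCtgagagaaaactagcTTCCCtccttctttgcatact

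The printed Tcf3 stretch held 1 E-box, starting 54 bases before the start of the gene. That of Id2 held 1 as well, starting 196 bases before it. The Ikzf1 window at the later start held 2 GGGAA cores, beginning 41 and 21 bases before the start, and the one at the earlier start held neither motif. Over the 9 windows of the members, 4 held an E-box and 2 the GGGAA core, where 66.2% and 56.2% of 32817 RefSeq windows of the same length did. A match describes these letters and is not a site of binding.

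The libraries held 4482916, 266790 and 3733531 counts in replicates 1, 2 and 3, so replicate 2 was 16.8-fold shallower than replicate 1. The members together had 2149, 113 and 1305 counts. TPM, a level per exon length scaled to the same total in each library, was computed from the counts. A gene with 2000 exon bases and 3 counts in replicate 2 would have 11.6 TPM. All values are those of the strand the authors counted, with featureCounts strand setting 1. The mitochondrial gene mt-Nd6, the light-strand protein gene, held 34.9%, 44.6% and 33.8% of the counts of the 13 mitochondrial protein genes, and whether the counted strand is that of the RNA was not tested. Genes whose exons face exons on the other strand held 51.7%, 55.1% and 66.5% of all counts. Among the members these were Ikzf2, Ikzf4 and Ikzf5, and the other 7 had no such overlap. The 8 markers of T cells and Th1 cells all reached 1 TPM, with Tbx21, the factor that sets the Th1 fate, at 70.5 ± 22.1 TPM (SD, n = 3). Cd3e had 1 count in replicate 2. Of 6 macrophage markers 2 reached 1 TPM, with Lyz2, Adgre1 and Itgam at 0. They were Csf1r, at 111.1 ± 25.05 TPM, above every member, with 871 exon bases facing another gene, and Cd68, at 12.7 ± 5.15. Of 5 erythroid and platelet markers Alas2 (10.96 ± 10.2) and Gp1ba (3.76 ± 1.76) reached 1 TPM, with Hbb-bs, Hba-a1 and Pf4 at 0.

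On the strand counted, which was not tested to be that of the RNA, the Ikaros and E protein families were each led by a single gene. Those genes were Ikzf1 at 58.4 ± 14.5 TPM among the Ikaros genes and Tcf3 at 56.1 ± 17.4 TPM among the E proteins (SD, n = 3). The ID genes followed, with Id3 at 27.5 ± 19.6 and Id2 at 14.9 ± 10.1 TPM. The Id3 mean was 17.3 TPM without replicate 1. In the middle lay Ikzf4 (7.65 ± 1.82), Ikzf5 (7.50 ± 3.00) and Tcf12 (6.90 ± 2.60). Ikzf3 had 2.74 ± 1.38 TPM, and Ikzf2 (0.708 ± 0.637) and Tcf4 (0.211 ± 0.219) were lowest. At a mean of at least 1 TPM there were 8 of the 10 members, where 47.8% of all 21764 protein-coding genes were, and 4 reached 10 TPM, where 27.3% did. Without replicate 2, in which they had no count, the mean was 1.06 TPM for Ikzf2 and 0.317 for Tcf4, and without replicate 1 it was 0.444 for Ikzf2 and 0.0986 for Tcf4. The median of the 10 means, which include Ikzf2 and Tcf4 below 1 TPM, was 7.58 TPM. It is not comparable with the median of 12.8 TPM over the 10408 protein-coding genes at 1 TPM or more. Among those genes Ikzf1 stood at percentile 84.9, Tcf3 at 84.3, Id3 at 70.4, Id2 at 54.6, Tcf12 at 33.3 and Ikzf3 at 13.3.

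**Figure D1:**
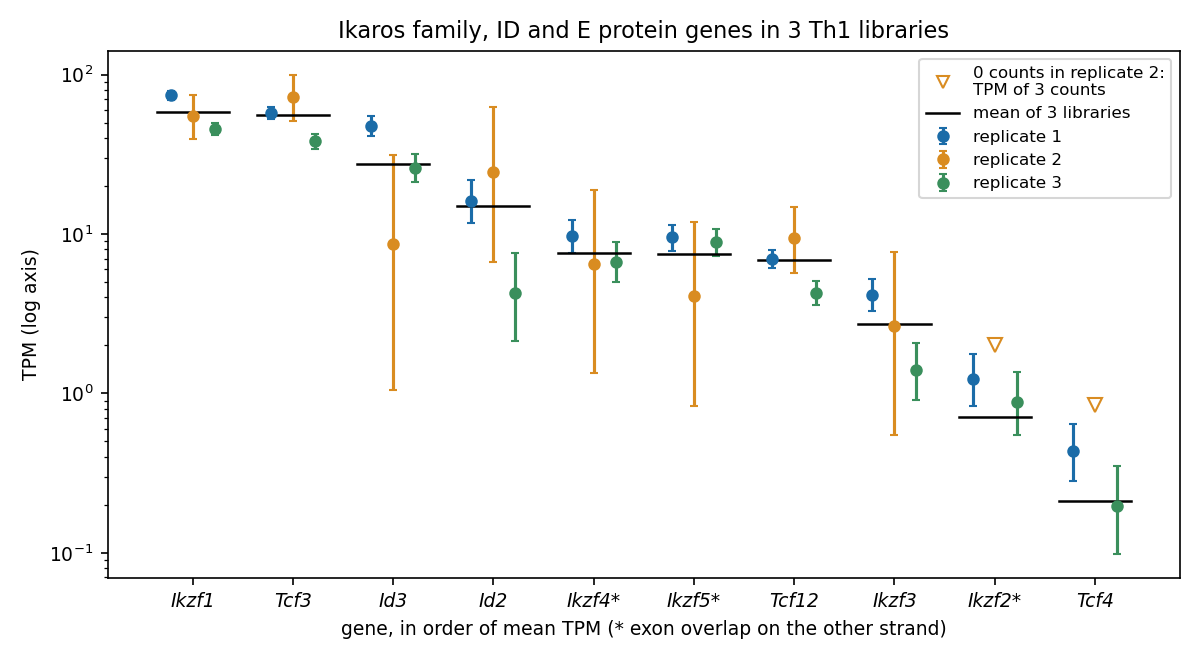
TPM (log axis) of the 10 genes in each library, in order of mean TPM: points are libraries with 95% exact Poisson intervals, black lines are means of 3 libraries, and open triangles mark 3 counts where replicate 2 had none. Ikzf1 and Tcf3 lie between 38.2 and 74.3 TPM in all 3 libraries, and Ikzf2 and Tcf4 are lowest.

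Neighbours in this order often changed places between libraries. Ikzf1 was above Tcf3 in 2 of 3 libraries, with a mean log2 ratio within the library of 0.08 ± 0.42 (SD, n = 3). The neighbours Id3 and Id2, Id2 and Ikzf4, Ikzf4 and Ikzf5, and Ikzf5 and Tcf12 likewise held their order in 2 of 3 libraries, each with a mean log2 ratio below its SD. These neighbours did not differ beyond their spread. Tcf3 was above Id3 in 3 of 3 libraries, but the log2 ratio, 1.30 ± 1.55, varied by more than its size. Tcf12 was above Ikzf3 in 3 of 3 libraries by 1.396 ± 0.57. Ikzf3 was above Ikzf2 by 1.204 ± 0.77, and Ikzf2 above Tcf4 by 1.84 ± 0.47, over the 2 libraries with a count of Ikzf2 and Tcf4. Exon length enters each level. With the longest coding transcript of each gene in place of the summed exons, Tcf3 had 62.1 TPM and Ikzf1 52.8. On that scale Tcf12 had 13.7 TPM, Id2 7.75, Ikzf3 5.27, Ikzf4 4.30 and Tcf4 0.544, so Tcf12 moved up to the fourth place behind Id3 at 31.1. These transcripts are those of GENCODE release 21, whereas the counts cover exons of release 13. For Id2 (1969 against 1270 bases) and Ikzf4 (5150 against 3580) the transcript is longer than all exons counted. Their lower values, and the new order, therefore partly reflect the change of annotation.

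Ikzf1 encodes Ikaros, the founding member of its family and a factor needed for lymphocyte development. It lies on chromosome 11 from 11685003 to 11772926 (mm10, plus strand). It had 74.3, 54.9 and 45.9 TPM in replicates 1, 2 and 3, from 898, 41 and 540 counts. The 95% Poisson interval in replicate 2 ran from 39.4 to 74.5 TPM and so covered the value of each other library. Ikzf1 made up 75.1%, 80.6% and 71.9% of the summed TPM of the 5 Ikaros genes, a share of 75.9% ± 4.42 (SD, n = 3). The share was 84.1% ± 1.41 without Ikzf5. Between Ikzf1 and Ikzf3 alone, the members of the family with no opposite-strand overlap, it was 95.7% ± 1.19.

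Ikzf3 encodes Aiolos, which pairs with Ikaros in lymphocytes and is known for its high level in B cells. It had 4.15, 2.65 and 1.402 TPM, from 76, 3 and 25 counts. Replicate 1 was highest and replicate 3 lowest, and the replicate 2 interval, 0.547 to 7.75 TPM, held both. Ikzf1 exceeded it by a mean log2 ratio of 4.52 ± 0.45, in 3 of 3 libraries.

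Ikzf2 encodes Helios, which marks many regulatory T cells. It had 1.24 and 0.888 TPM in replicates 1 and 3, from 30 and 21 counts, and no count in replicate 2, which allows up to 2.00 TPM (3 counts). In the Treg marker list, which includes Ikzf2 and Ikzf4, 6 of 8 genes reached 1 TPM, and those below it were Ikzf2 and Lrrc32 (0.306 ± 0.530). Foxp3, which defines regulatory T cells, had 64.9 ± 2.73 TPM, and 590 of its exon bases face another gene. The summed TPM of the list was 1486, 1298 and 834 in replicates 1, 2 and 3. Most of it was Il2ra (559 ± 166 TPM), Ctla4 (325 ± 119) and Tnfrsf18 (231 ± 63.6, with 414 exon bases facing another gene). Nrp1 had 17.3 ± 9.67 TPM. In bulk RNA, fewer cells of a type and less RNA per cell cannot be told apart. The exons of Ikzf2 share 144 bases with Gm29114, an antisense noncoding gene that had 26, 2 and 47 counts.

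Ikzf4 encodes Eos, a corepressor partner of Foxp3 in regulatory T cells. It had 9.75, 6.49 and 6.72 TPM, from 73, 3 and 49 counts. The coefficient of variation, 23.8%, was the lowest of the 10 genes, with Ikzf1 at 24.9%. On 3 counts the replicate 2 interval ran from 1.34 to 18.95 TPM, so the closeness of the 3 values is uncertain. The share of Ikzf4 in the family was 9.85%, 9.52% and 10.5%. Ikzf1 exceeded Ikzf4 by a mean log2 ratio of 2.93 ± 0.16, in 3 of 3 libraries. The overlap on the other strand was 37 bases, with the noncoding gene Gm26876, which had 11, 0 and 19 counts.

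Ikzf5, which encodes Pegasus, had 9.53, 4.06 and 8.93 TPM, from 114, 3 and 104 counts. Of its 5721 exon bases 4835 (84.5%) lie opposite to exons on the other strand, and 4652 of these are in Pstk, which encodes the kinase that phosphorylates seryl-tRNA for selenocysteine. Pstk had 991, 94 and 1431 counts, 8.69, 31.3 and 13.8 times those of Ikzf5. Without the strand of the RNA, reads of the shared bases cannot be told apart, so the levels of Ikzf5 and Pstk are uncertain. Whether the counted strand is that of the RNA was not tested for any member. The unshared bases of Ikzf5 number 886.

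**Figure D2:**
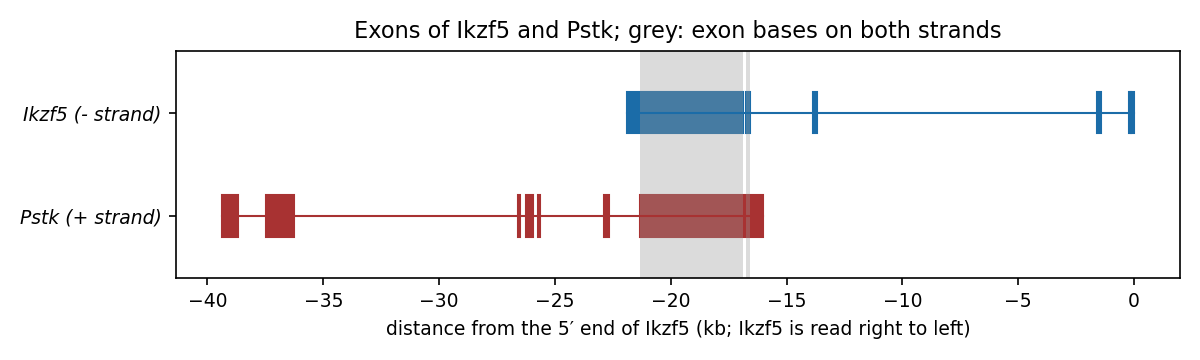
Exons (boxes) of Ikzf5 and of Pstk, drawn to scale by distance in kb from the 5′ end of Ikzf5. Grey marks exon bases on both strands: the long last exon of Ikzf5 lies mostly within the last exon of Pstk, and the 2 genes share 4652 bases.

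Tcf3 encodes the E2A proteins, the main E proteins of early lymphocytes, and despite its symbol it is not the TCF factor of the Wnt pathway. It lies on chromosome 10 from 80409514 to 80433647 (mm10, minus strand). It had 57.4, 72.8 and 38.2 TPM in replicates 1, 2 and 3, from 485, 38 and 314 counts. Tcf12, which encodes HEB, the usual partner of E2A in thymocytes, had 6.96, 9.47 and 4.27 TPM, from 226, 19 and 135 counts. Both genes were highest in replicate 2 and lowest in replicate 3. The log2 ratio of Tcf3 to Tcf12 was 3.04, 2.94 and 3.16, a mean of 3.05 ± 0.11, the narrowest SD of the pairs of members computed. Tcf12 has 15529 counted exon bases, while its longest coding transcript has 6299. With longest coding transcripts as length the means were 62.1 TPM for Tcf3 and 13.7 for Tcf12, a narrower gap. The size of the ratio thus depends on the length used.

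Tcf4 encodes E2-2, the E protein that plasmacytoid dendritic cells depend on. It had 0.437 and 0.197 TPM in replicates 1 and 3, from 25 and 11 counts, and no count in replicate 2, which allows up to 0.848 TPM (3 counts). Tcf3 exceeded it by a log2 ratio of 7.04 and 7.60 in the libraries with a count. Of 6 plasmacytoid dendritic cell markers, 0 reached 1 TPM and 3, among them Siglech, had no count, with a summed TPM of 1.44, 0 and 0.431. Of 7 B-cell markers 2 reached 1 TPM, Ighm at 23.1 ± 23.2 and Cd79a at 8.23 ± 4.00, while Ms4a1 and Pax5 were among those with no count. Their summed TPM was 54.8, 14.7 and 27.4, and their part in the levels of Tcf3, Tcf4 and Ikzf3 was not tested.

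**Figure D3:**
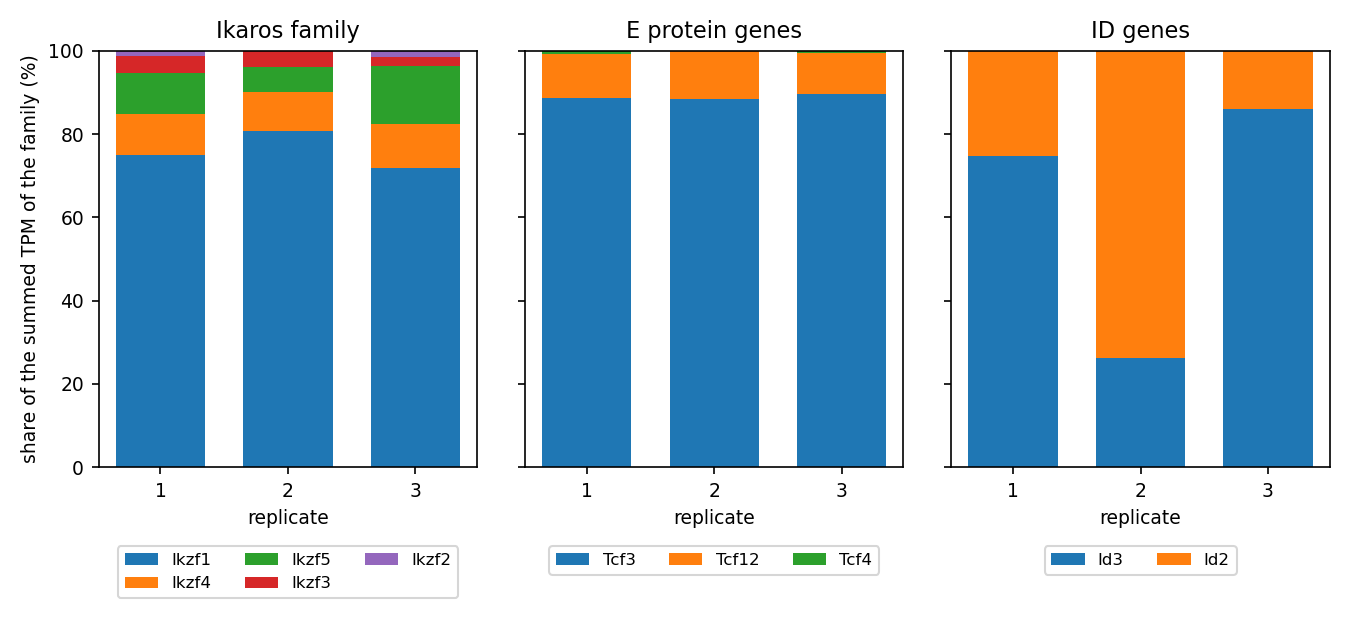
Share of each gene in the summed TPM of its family (%), by replicate. Tcf3 takes 88.5% to 89.5% of the E protein sum and Ikzf1 71.9% to 80.6% of the Ikaros sum. The ID genes change places in replicate 2, on 6 counts and with a ratio interval that includes equality.

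Id2 and Id3 encode the ID proteins of T cells, Id2 known for effector cells including Th1 and Id3 for naive, memory and follicular cells. Id3 had 47.8, 8.64 and 26.0 TPM in replicates 1, 2 and 3, from 179, 2 and 95 counts. Id2 had 16.2, 24.4 and 4.25 TPM, from 43, 4 and 11 counts. Id3 was thus above Id2 in replicates 1 and 3 and below it in replicate 2. The ratio of Id2 to Id3 was 0.339 in replicate 1, with an exact binomial 95% interval of 0.237 to 0.475, and 0.163 in replicate 3, with an interval of 0.0789 to 0.306. In replicate 2 it was 2.82, with an interval of 0.404 to 31.2 that includes equality, on 6 counts of the pair. Of 5 follicular helper markers 3 reached 1 TPM: Il21 (92.3 ± 12.5), Sh2d1a (31.5 ± 8.94) and Cxcr5 (6.48 ± 2.19). Exons of these 3 face another gene over 469, 1465 and 110 bases. Bcl6 had 0.842 ± 0.321 TPM, and Ascl2 had no count. The summed TPM of the 5 was 120.9, 145.2 and 127.1. Of the 2 CD8 markers Cd8a had no count and Cd8b1 had 14, 0 and 7 counts, a mean of 2.28 ± 2.26 TPM. Of 6 markers of NK and innate lymphoid cells, which also use Id2, 3 reached 1 TPM, among them Eomes (6.87 ± 3.09) and Il1rl1 (2.15 ± 1.22), with Ncr1, Klrb1c and Klra8 at 0. The part of these cells in the levels of Id2 and Id3 was not tested.

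The mean log2 ratio of Id2 to Id3 was -0.89 ± 2.14 (exact two-sided sign-flip permutation test, p = 0.5, n = 3). Without replicate 2 it was -2.09 ± 0.74, without replicate 1 -0.56 and without replicate 3 -0.03. It was -2.01 ± 2.14 with the longest coding transcript as length, which is 1969 bases for Id2 against the 1270 exon bases of the deposited files. With 3 libraries this test cannot give a p below 0.25.

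The E protein genes summed to 64.8, 82.3 and 42.6 TPM, and the ID genes to 64.0, 33.0 and 30.3 TPM. The E protein sum was 1.01, 2.49 and 1.41 times the ID sum in replicates 1, 2 and 3. In replicate 1 the sums were nearly equal, and the widest gap was in replicate 2, on 6 ID counts. The mean log2 ratio was 0.61 ± 0.66, positive in 3 of 3 libraries (exact two-sided sign-flip permutation test, p = 0.25, the smallest it can give). It was 0.26 without replicate 2, 0.91 without replicate 1 and 1.05 with the longest coding transcript as length. For Id2 that length exceeds the exon bases counted, which lowers the ID sum. Tcf3 alone exceeded Id2 by 2.19 ± 0.85 on the log2 scale, in 3 of 3 libraries.

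**Figure D4:**
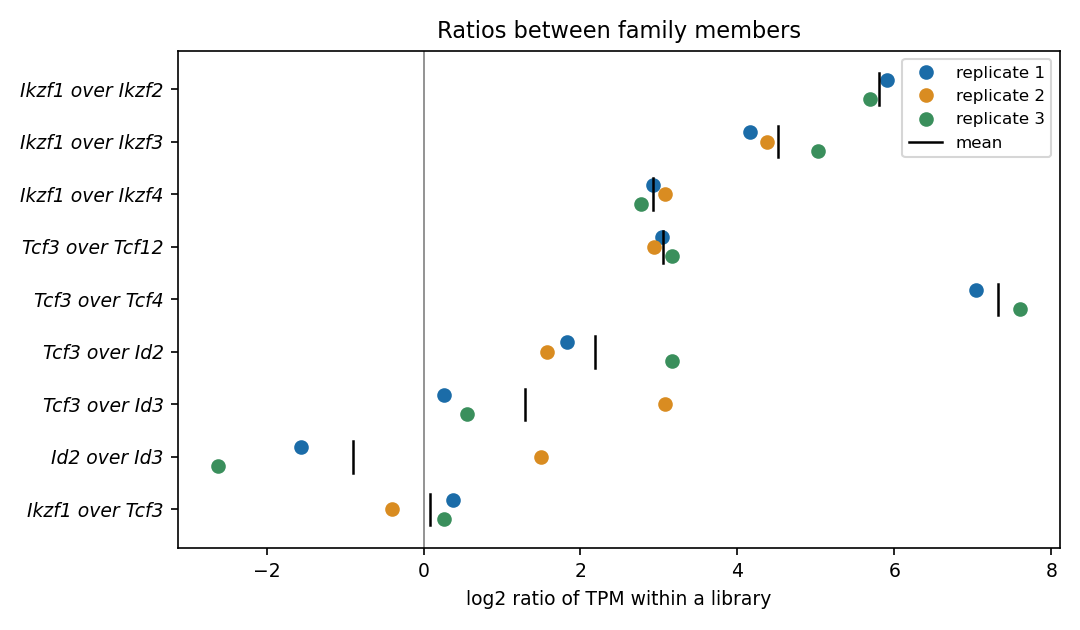
Log2 ratio of TPM between members within each library (points) and the mean (black line), with no point for replicate 2 where Ikzf2 or Tcf4 had no count. Ikzf1 lies above Ikzf3 and Ikzf4, and Tcf3 above Tcf12, in all 3 libraries, whereas Id2 over Id3 runs from -2.61 to 1.496.

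The libraries were then compared with each other by a chi-square test on the counts of each gene, with TMM-scaled library sizes and Benjamini-Hochberg adjustment over the 11595 genes with a mean count of at least 10. A gene was called where the adjusted p was under 0.05 and the highest library was at least 2 times the lowest (the ratio below). The test compares these libraries and holds counting error only. Of the 10 members 3 were called, where 32.2% of all genes tested were. They were Id2, with a ratio of 4.22 (chi-square test, adjusted p = 0.00769), Id3, with 3.61 (chi-square test, adjusted p = 0.00894), and Ikzf3, with 2.14 (chi-square test, adjusted p = 0.00758). Id3 and Ikzf3 were highest in replicate 1, where 7.59% of genes were called with that library highest. Id2 was highest in replicate 2, for which the share was 10.5%, and none of the 3 was highest in replicate 3, for which it was 14.1%.

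Each of these calls was lost when some library was left out. Between replicates 1 and 3 alone, Id2 was called with a ratio of 2.53 (chi-square test, adjusted p = 0.0141), while 14.9% of genes were. Id3 had a ratio of 1.22 there (chi-square test, adjusted p = 0.219). The ratio of Ikzf3 was 1.97, just under 2 (chi-square test, adjusted p = 0.0093). Without replicate 3, Id3 was the member called, with a ratio of 3.61 (chi-square test, adjusted p = 0.0454), while 1332 of 11272 genes were. Without replicate 1, 0 of 8 members tested were called, while 1941 of 10804 genes were. Of these 8, 2 had an unadjusted p under 0.05 and a ratio of at least 2. Id2 fell under the minimum count there and was not tested, with its ratio still 4.22, and Id3 had a ratio of 2.73 (chi-square test, adjusted p = 0.0974). The expected counts in replicate 2 were 1.99 for Id2, 9.47 for Id3 and 3.57 for Ikzf3.

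The 3 members with the most counts were not called. Ikzf1 had a ratio of 1.32 (chi-square test, adjusted p = 0.0139), Tcf3 of 1.41 (chi-square test, adjusted p = 0.162) and Tcf12 of 1.64 (chi-square test, adjusted p = 0.123). Ikzf4 had 1.47 (chi-square test, adjusted p = 0.817). Ikzf2 had 1.003 (chi-square test, adjusted p = 0.459) and Tcf4 1.596 (chi-square test, adjusted p = 0.277). Neither had a count in replicate 2, where the floor of 3 scaled to more than replicate 1 or 3 held. These 2 ratios therefore compare replicate 1 with replicate 3, while the adjusted p covers all 3 libraries. Between the 2 deeper libraries alone, the ratio was 1.002 for Tcf3 and 1.08 for Ikzf1. The biological coefficient of variation fitted by edgeR was 0.278 for Tcf3, 0.278 for Tcf12, 0.286 for Ikzf1 and 0.297 for Ikzf4. The median over the 11595 genes was 0.349. The coefficient was 0.494 for Id2 and 0.425 for Id3. Ikzf5 did not pass (ratio 2.98; chi-square test, adjusted p = 0.0614), but did with DESeq2 size factors (chi-square test, adjusted p = 0.0396).

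All 10 members had a lower TPM in replicate 3 than in replicate 1, as did 84.7% of the protein-coding genes at 1 TPM or more. TPM depends on what other genes take, and genes with an opposite-strand overlap held 66.5% of the counts in replicate 3 and 51.7% in replicate 1. Scaled over genes with no overlap alone, Ikzf1 had 189.5, 148.5 and 183.9 TPM, Tcf3 146.4, 196.9 and 153.0, and Id3 121.8, 23.4 and 104.4. On that scale the log2 difference of replicate 3 from replicate 1 was -0.04 for Ikzf1, 0.06 for Tcf3, -0.05 for Tcf12 and -0.22 for Id3. It was -1.28 for Id2, -0.91 for Ikzf3 and -0.49 for Tcf4. In the chi-square test on these genes 0 of the 7 members without overlap were called, with 2 at an unadjusted p under 0.05 and a ratio of at least 2, where 17.3% of 6933 genes were called. The ratio there was 3.67 for Id2 (chi-square test, adjusted p = 0.0565), 3.54 for Id3 (chi-square test, adjusted p = 0.0793) and 1.82 for Ikzf3 (chi-square test, adjusted p = 0.0885).

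The NuRD genes, partners of Ikaros proteins, had a median of 61.5 TPM, beside 58.4 TPM for Ikzf1. All 13 reached 1 TPM, as did 47.8% of protein-coding genes, and 12 reached 10 TPM, led by the histone-binding Rbbp7 (170.6 ± 45.5 TPM) and the remodelling ATPase Chd4 (154.5 ± 39.7), and 1 of 13 was called between libraries, where 32.2% of all genes tested were, Mta1, named after its values were seen. The other corepressors and remodellers of Ikaros proteins all reached 1 TPM (5 of 5), led by Smarca4 at 67.1 ± 13.5 and Ctbp1 at 36.3 ± 14.7, and 2 of 5 were called, Ctbp1 and Sin3b, the second named after its values were seen. Of 7 coactivators and corepressors of E proteins 5 reached 1 TPM, led by Kat2a (20.3 ± 5.91) and Ep300 (10.04 ± 2.76), and 0 of the 5 tested were called by the chi-square test. Runx1t1 and Cbfa2t3 had no count.

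Of 11 other helix-loop-helix genes 4 reached 1 TPM, 3 without replicate 2, where 47.8% of protein-coding genes reached it over the 3 libraries. Bhlhe40, a repressor that Th1 cells use, had 202.8 ± 74.9 TPM, followed by Lyl1 at 9.61 ± 4.89, both with an exon overlap. Hes1, named after its values were seen, had 6.49 ± 10.8 TPM from 0, 5 and 2 counts. Of the remaining ID genes, Id4 had no count, and Id1, named after its values were seen, had 1.11 ± 1.04 TPM from 5, 0 and 3 counts. Among 8 genes of early lymphocytes, several of which E proteins and Ikaros regulate in precursors, 1 reached 1 TPM, Vpreb1 at 14.1 ± 7.005, which has an overlap of 108 bases. Ptcra, Rag1, Rag2, Igll1 and Vpreb2 had no count in any library.

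**Figure D5:**
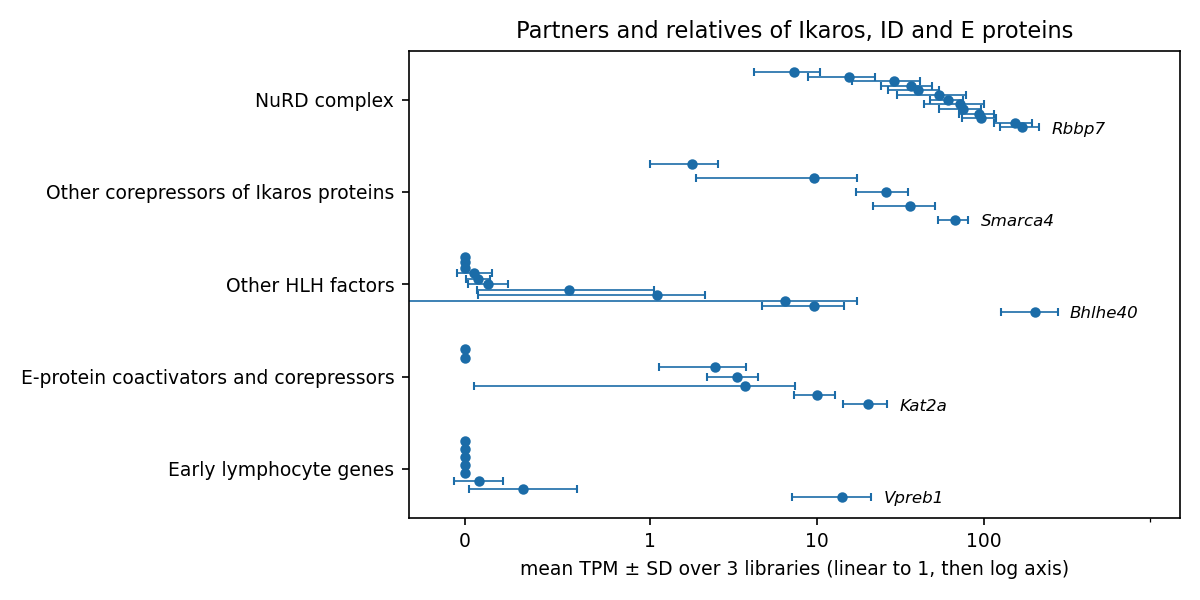
Mean TPM ± SD over the 3 libraries of the genes in 5 lists of partners and relatives (linear axis to 1, log axis above), with the highest gene of each list named. The NuRD genes lie at 7.33 TPM or more, while most other helix-loop-helix and early lymphocyte genes are near 0.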

How the data were processed

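The authors deposited raw fragment counts per gene, 1 library per file. Per the file headers, they were made with featureCounts 1.4.6-p4 over exons of GENCODE mouse release 13 on mm10, with both ends mapped and strand setting 1, from a STAR alignment whose version is not given in the sources used here. Names came from GENCODE release 21 on the same assembly (GRCm38), which matched 50376 of 50600 genes. Promoters are from RefSeq, GRCm38.p6.

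TPM was computed from the counts and the deposited exon lengths. An opposite-strand overlap is any exon base shared with a gene on the other strand, found for 8189 genes (16.2%). Library sizes were scaled by TMM (edgeR 4.0.16, R 4.3.3), with DESeq2 1.42.0 size factors as an alternative, and scipy 1.17.1 gave tests and intervals. Counts under 3 were set to 3 before the lowest scaled library of each ratio was taken. PCR copies are not independent molecules, so intervals and floors hold the counting error alone. All members, the genes facing them, all markers, and the 2 highest genes or those without a count of each partner list could be named. Members and lists were chosen with earlier results of these data known. No value column was left unused.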

Additional observations from a re-analysis of the deposited data

How the results depend on the processing

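The use of longest coding transcripts and the omission of Ikzf5 were chosen after the data were seen. Of the members, 4 reached a mean of 10 TPM, and 8 or 9 reached 1 TPM when 1 replicate was left out. The count of varying members was 3 of 10 tested, where 3731 of 11595 genes varied. At a mean count of at least 100 it was 0 of 3, where 1750 of 5137 genes did. Of these 3 members, 0 had both an unadjusted p under 0.05 and a ratio of 2 or more. On genes with no opposite-strand overlap it was 0 of 7 (1201 of 6933 genes). It was 0 of 8 without replicate 1 (1941 of 10804 genes) and 1 of 10 without replicate 2 (1824 of 12257 genes). Without replicate 3 it was 1 of 10 (1332 of 11272 genes), and with DESeq2 size factors 4 of 10 (3694 of 11595 genes). The log2 ratio of E protein to ID sums was 2.36 on counts without length scaling and 0.26 to 0.91 when 1 replicate was left out. That of Id2 to Id3 stayed between -2.09 and -0.03 when 1 replicate was left out. The Ikzf1 share was 95.7% without the overlapped genes, 84.1% without Ikzf5 and 73.5% to 77.9% when 1 replicate was left out. The cause of these changes was not tested. Of 67 alternative values of the member means, 56 lay within 1 SD of the reported one. The medians and the means without 1 replicate could not fail. From 3 values they cannot lie 1 SD from the mean. The 11 others comprised the 7 means scaled over genes with no overlap, a scale on which each rises, and 4 on the longest transcript. The tally is therefore no measure of robustness. Depth limits replicate 2, where 3 of the 10 members had under 3 counts. No paired analysis was possible because there is 1 group.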
